A study of Mus musculus with 12 samples.

Results

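Predicted genes, listed under symbols made of Gm and a number, are mouse loci that genome annotation pipelines found and that had no name from function when they were catalogued. Such loci made up 23007 of the 53465 genes in the expression table of this study, and 14408 of them were at 0 in every library. The 100 described here were chosen by their level in these same libraries: the mean of each of the 4 experimental groups was taken for every Gm gene, and the 100 genes whose highest group mean was largest were kept. The lowest of these highest means, 156 scaled reads, is called the cut. Scaled reads are a gene's reads divided by 1 factor per library, so they do not correct for gene length. Just inside the cut lay Gm26637 at 161, Gm10134 at 158, Gm18852 at 158, Gm43445 at 157 and Gm26797 at 156. Just outside it lay Gm25939 at 154, Gm44321 at 154, Gm45418 at 152, Gm45838 at 151 and Gm43668 at 149. Because the rule takes the highest of 4 means, it favours genes that are high in 1 group, and the level in that group is not a finding.

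The 100 genes were a mixed set. GENCODE M21 placed 99 of them: 38 were long noncoding RNAs, 19 protein-coding genes, 19 loci marked TEC (still awaiting experimental proof), 16 pseudogenes and 7 small RNA genes, and Gm45884 had no entry. Pseudogenes made up 39.6% of all Gm genes in the table but 16 of these 100, while protein-coding genes made up 6.24% of all Gm genes and 19 of these 100. The highest group mean fell in the Lyz2Cre LPS group for 46 genes, in the Lyz2Cre-BHLHE40-Fl LPS group for 23, in the Lyz2Cre-BHLHE40-Fl controls for 18 and in the Lyz2Cre controls for 13. All 4 group means reached the cut for 25 genes, and a single group reached it for 34.

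As background, macrophages that meet lipopolysaccharide (LPS), the outer membrane component of Gram-negative bacteria, switch on inflammatory genes through the receptor TLR4 and the transcription factor NF-κB, and secrete type I interferon, which then induces a further set of genes. Among the interferon-induced genes are large families of guanosine triphosphatases (GTPases) that gather on the vacuoles of intracellular microbes: the immunity-related GTPases, the guanylate-binding proteins and the very large inducible GTPases. Mouse copies of these families lie in tandem clusters, and many still carry Gm symbols. Long noncoding RNAs that run antisense to a coding gene, transcribed pieces of introns and pseudogenes copied from messenger RNA are the other common kinds of Gm locus. BHLHE40, a repressor with a basic helix-loop-helix fold, binds E-box DNA and has been studied as a regulator of cytokine genes.

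Peritoneal macrophages of C57BL/6 mice at postnatal week 10 gave the total RNA, in 4 groups of 3 libraries. Every group carried the Lyz2Cre label, meaning Cre recombinase driven by the lysozyme 2 gene of macrophages and granulocytes. Of these, 2 groups were labelled Lyz2Cre alone, as control and with LPS, and 2 were labelled Lyz2Cre-BHLHE40-Fl, as control and with LPS. The sources used here give no dose or time of LPS and do not say whether replicates came from separate mice or cultures, so the p-values cover no more than the spread among the libraries, which may be technical. Bhlhe40 itself, the gene named in the label, had 4886.1, 4737.1 and 5306.2 scaled reads in the Lyz2Cre controls and 8045.7, 7617.0 and 8015.5 in the Lyz2Cre-BHLHE40-Fl controls, so it was higher, not lower, in the libraries labelled Lyz2Cre-BHLHE40-Fl. With LPS it had 2544.2, 2212.4 and 2644.0 against 1955.6, 2415.0 and 2326.7, values that overlapped. A read count over the whole gene does not show whether part of it was deleted, and groups are therefore named below by their labels.

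Depth ran from 20489417 to 29354869 reads per library. The 100 genes took between 0.383% and 0.759% of reads in the 6 control libraries and between 0.968% and 1.31% in the 6 LPS libraries. Without Gm26917 and Gm42418, which lie at or beside a ribosomal RNA gene, the shares were 0.138% to 0.183% and 0.377% to 0.447%. Lyz2Cre-BHLHE40-Fl LPS replicate 2 stood apart for Gm42418 and Gm15564, described with their values below. Marker genes of other cells differed between the genotype labels: the summed level of 6 mesothelial markers was 7.80 to 27.8 in the 6 Lyz2Cre libraries, with Upk3b at 0 in all of them, and 1196 to 2407 in the 6 labelled Lyz2Cre-BHLHE40-Fl. The sum of 5 fibroblast markers was 1935 to 4581 against 9381 to 14256, and that of 8 macrophage markers 117673 to 167805 against 60886 to 91097. Sums were also lower in the libraries labelled Lyz2Cre-BHLHE40-Fl for monocytes (1136 to 1883 against 63.7 to 294), neutrophils (410 to 1233 against 45.0 to 229), B cells (1384 to 2437 against 173 to 335) and T cells (67.6 to 91.3 against 0 to 15.8). Of the 6 neutrophil markers, S100a9, Ly6g and Mpo were at 0 in every Lyz2Cre library, so that sum came from the others. By contrast, the sum of 6 markers of resident large peritoneal macrophages overlapped, at 579 to 672 against 567 to 704. Of these 6, 1 was called higher and 3 lower in the Lyz2Cre-BHLHE40-Fl controls. Single markers of other cells did not all follow their sums. In these controls 1 of 6 B cell and 2 of 4 monocyte markers were called lower, against 6 of 6 T cell markers. Between labels with LPS, 2 B cell, 3 monocyte and 6 T cell markers were called lower, and 1 monocyte marker was called higher. The part of these differences in cell markers in the genotype comparisons below was not tested. In bulk RNA, fewer cells of a type and less RNA per cell cannot be told apart.

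Sequence shows what several of these genes are. Promoters, 250 bases before to 50 after a transcription start in RefSeq annotation of GRCm38.p6, were in the table used for 33 of the 100 genes, 4 of them under a current symbol. The core of the interferon-stimulated response element, GAAANNGAAA on either strand, was found in the promoters of 9 of these 33 (27.3%) and in 3.99% of the 27025 genes in that table. It was in 6 of the 17 genes called higher with LPS under both genotype labels (35.3%) and in 3 of the other 16 (18.8%). The E-box CACGTG, the site that basic helix-loop-helix factors of this class read, was in 4 of the 33 (12.1%) against 8.09% of all genes, and the NF-κB consensus in 2 (6.06%) against 5.14%. A match of letters is a description of the window, not evidence that a factor binds there. The promoters of 3 genes that were higher with LPS are shown because each holds the response element, in capitals, on the strand of the gene or as its reverse complement. Gm12250 (chr11:58183593-58183892, plus strand) encodes an immunity-related GTPase and holds it at 2 places; this RefSeq start lies upstream of the single exon that GENCODE gives (chr11:58187739-58189012). Gm12185 (chr11:48927133-48927432, minus strand) is a GTPase gene of another chromosome 11 cluster. Its RefSeq start lies inside the span that GENCODE gives the gene (chr11:48904656-48992226). Gm26797 (chr9:122310879-122311178, minus strand) is a long noncoding RNA gene.
Gm12250: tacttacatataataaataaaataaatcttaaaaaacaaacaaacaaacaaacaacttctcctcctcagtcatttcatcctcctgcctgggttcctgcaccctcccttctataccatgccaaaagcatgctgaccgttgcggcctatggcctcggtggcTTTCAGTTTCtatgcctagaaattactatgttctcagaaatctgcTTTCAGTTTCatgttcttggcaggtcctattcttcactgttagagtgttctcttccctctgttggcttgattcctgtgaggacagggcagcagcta
Gm12185: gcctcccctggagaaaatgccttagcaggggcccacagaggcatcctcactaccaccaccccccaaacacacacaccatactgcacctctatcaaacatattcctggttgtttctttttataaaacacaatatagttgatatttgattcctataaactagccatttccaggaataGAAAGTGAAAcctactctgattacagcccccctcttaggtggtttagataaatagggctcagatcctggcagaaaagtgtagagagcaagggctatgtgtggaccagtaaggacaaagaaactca
Gm26797: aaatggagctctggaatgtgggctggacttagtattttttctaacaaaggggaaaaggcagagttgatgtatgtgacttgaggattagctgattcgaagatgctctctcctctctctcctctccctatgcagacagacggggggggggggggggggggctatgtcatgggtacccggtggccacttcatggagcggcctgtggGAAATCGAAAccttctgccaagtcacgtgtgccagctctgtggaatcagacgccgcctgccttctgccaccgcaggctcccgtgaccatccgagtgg

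Small RNA genes were the other group in which sequence matters for reading the values. Gm24265 (chr5:115489459-115489599) and Gm24407 (chr5:115490254-115490394) are annotated as small nuclear RNAs of the spliceosome on the plus strand of mm10 and are 654 bases apart. Their 141-base sequences differed at 2 positions, G88A and C99A counted from the 5′ end of Gm24265, and these are in capitals. A short read that misses both positions fits either gene, so their values are not independent.
Gm24265: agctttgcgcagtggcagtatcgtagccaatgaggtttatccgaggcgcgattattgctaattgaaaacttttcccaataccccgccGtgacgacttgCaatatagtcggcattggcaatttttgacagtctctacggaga
Gm24407: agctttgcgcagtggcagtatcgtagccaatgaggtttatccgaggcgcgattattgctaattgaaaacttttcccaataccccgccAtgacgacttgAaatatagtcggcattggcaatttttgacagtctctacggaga

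With LPS, most of the 100 genes were higher under both genotype labels. In the Lyz2Cre libraries 66 were called higher and 21 lower, against 25.0% and 23.9% of the 20419 genes tested (limma on log2(value + 1), Benjamini-Hochberg adjusted p below 0.05, no minimum change). In the Lyz2Cre-BHLHE40-Fl libraries 63 were called higher and 28 lower, against 24.9% and 25.6%. The calls were joint for most: 60 genes were higher under both labels, 20 were lower under both, and Gm20560 and Gm17749 were higher in Lyz2Cre and lower in Lyz2Cre-BHLHE40-Fl. The median log2 change was 1.37 and 1.72 over the 100 genes and 0.00 and -0.05 over all genes tested. The rule that picked the genes used the group means behind these contrasts, so the counts are a description. Tested genes without a Gm symbol whose highest group mean reached the same cut numbered 9569, and 40.5% and 41.3% of them were called higher with LPS under the 2 labels. Among the 25 genes at or above the cut in all 4 groups, 16 were called higher and 3 lower in Lyz2Cre, and 12 and 8 in Lyz2Cre-BHLHE40-Fl. Scaling mattered for the split: with library totals set equal, the median of all genes moved to -0.58 and -0.56, and the calls among the 100 became 47 higher and 32 lower in Lyz2Cre and 57 higher and 35 lower in Lyz2Cre-BHLHE40-Fl.

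**Figure D1:**
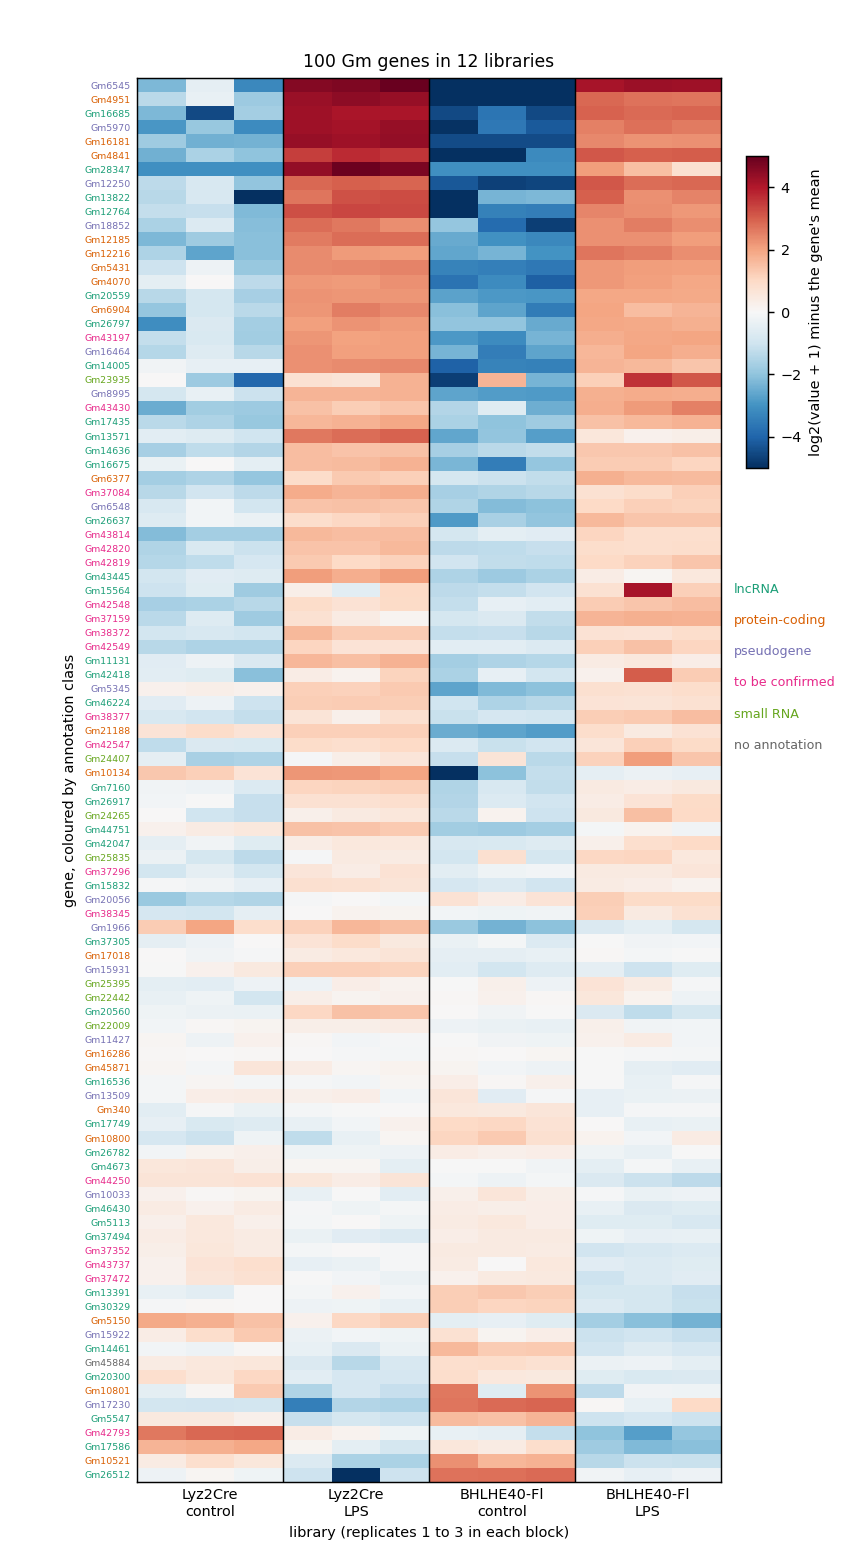
Heat map of the 100 Gm genes (rows, ordered by their mean LPS change, names coloured by annotation class) in the 12 libraries (columns, 3 per group), with BHLHE40-Fl for Lyz2Cre-BHLHE40-Fl and colour for log2(value + 1) minus the gene's own mean over the 12 libraries. The upper rows are red in both LPS blocks, and in Lyz2Cre-BHLHE40-Fl LPS replicate 2 the cells of Gm15564 and Gm42418 are darker than those of replicates 1 and 3.

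Interferon-inducible GTPase genes and their pseudogenes were among the genes that rose with LPS. A list of 12 such genes under Gm symbols had 9 among the 100. Of these 9, 8 were called higher with LPS in Lyz2Cre and 9 in Lyz2Cre-BHLHE40-Fl. The shares called higher under the 2 labels were 25.0% and 24.9% of all genes tested. They were 40.5% and 41.3% of the genes without a Gm symbol at or above the cut. On the comparison list of 15 GTPase genes with ordinary names, such as Irgm1, Iigp1 and Gbp2, 15 were called higher under each label. The lists were written with earlier results of these data known, and Gm12216, a chromosome 11 locus on the first list, shows no place in these families in the annotation used.

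Gm12250, also known as Irgb10, encodes an immunity-related GTPase that helps to break open vacuoles and bacteria. GENCODE M21 annotates the locus as a processed pseudogene and RefSeq as a protein-coding gene. In the Lyz2Cre libraries it had 787.5, 1120.2 and 493.3 scaled reads as control and 14320.5, 15164.3 and 14551.3 with LPS. The Lyz2Cre-BHLHE40-Fl libraries had 100.3, 74.2 and 80.4 as control and 16784.8, 13534.5 and 14145.8 with LPS. All LPS libraries were thus above all controls, and the lowest values were those of the Lyz2Cre-BHLHE40-Fl controls. The LPS change was 4.27 ± 0.19 on the log2 scale (SE, 18.3-fold, limma adjusted p = 2.61e-12) in Lyz2Cre and 7.44 ± 0.19 (174-fold, limma adjusted p = 8.97e-16) in Lyz2Cre-BHLHE40-Fl.

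A chromosome 18 cluster held 3 relatives of Iigp1, the gene of the vacuole-attacking GTPase Irga6. Gm4951 encodes a GTPase of this family and aligned to Iigp1 with 86.5% identity over 1280 bases of its 2645-base transcript. It had 77.8, 156.4 and 56.9 scaled reads in the Lyz2Cre controls, 3990.7, 4431.8 and 4176.0 with LPS, 2.2, 2.4 and 2.2 in the Lyz2Cre-BHLHE40-Fl controls and 1471.1, 1332.4 and 1274.8 with LPS. None of the 4 groups overlapped, and Gm4951 rose by 5.55 ± 0.24 and 8.70 ± 0.24 on the log2 scale. Gm4841, on the opposite strand 20484 bases away, encodes another member and had 6.9, 13.0 and 9.2 scaled reads against 459.9, 547.6 and 488.4 in Lyz2Cre, and 0.0, 0.0 and 3.6 against 355.8, 332.7 and 340.6 in Lyz2Cre-BHLHE40-Fl. Gm5970 is a processed pseudogene inside an intron of Gm4951 and was 88.2% identical to Iigp1. It went from 3.1, 7.3 and 2.5 to 586.4, 551.7 and 628.3 in Lyz2Cre, a 137-fold difference, and from 0.0, 1.6 and 0.7 to 175.5, 205.5 and 186.6 in Lyz2Cre-BHLHE40-Fl. Its fold in Lyz2Cre-BHLHE40-Fl was 247, with a counting interval of 84.4 to 1197, since the controls held so few reads.

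On chromosome 11, Gm5431 and Gm12185 are neighbouring GTPase genes on 1 strand, with 2441 bases between them. Gm5431 (chr11:48887422-48902214 of mm10) had 549.7, 922.5 and 294.8 scaled reads in the Lyz2Cre controls and 5754.0, 5907.7 and 6261.6 with LPS, a 10.1-fold rise. In the Lyz2Cre-BHLHE40-Fl libraries it had 107.6, 101.8 and 92.8 as control and 4969.2, 4737.9 and 4605.9 with LPS, a 47.4-fold rise. Its transcript was 95.7% identical to that of 9930111J21Rik1, a neighbour of the same family, so reads of the 2 may be split. Gm12185 rose 27.5-fold, from 32.3, 44.6 and 36.0 to 932.4, 1091.0 and 1080.9, in Lyz2Cre and 36.1-fold, from 26.2, 18.2 and 15.9 to 756.0, 759.0 and 661.2, in Lyz2Cre-BHLHE40-Fl.

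The very large inducible GTPases gave 3 genes on chromosome 7. Gm8995 is annotated as a transcribed pseudogene of a single exon (chr7:106504239-106511671) and its highest group mean was exceeded among the 100 genes by that of Gm26917. It had 9685.9, 13831.1 and 8347.9 in the Lyz2Cre controls, 57875.3, 56617.3 and 58807.3 with LPS, 2804.8, 2557.9 and 2491.4 in the Lyz2Cre-BHLHE40-Fl controls and 59872.8, 64465.0 and 61524.5 with LPS. It rose 5.44-fold and 23.7-fold, and its mean with LPS was 1.07-fold higher in Lyz2Cre-BHLHE40-Fl, a difference that was not called. Gm4070 carries a transcript that was 100% identical over its whole length to that of Gvin1, the named member of the family, so the values of the 2 cannot be separated. It rose 6.54-fold, from 150.1, 213.2 and 85.4 to 967.1, 928.3 and 1037.4, and 53.1-fold, from 15.3, 22.9 and 11.6 to 948.0, 890.9 and 807.7. Gm1966 behaved differently from the other GTPase genes: in Lyz2Cre it had 834.5, 1360.2 and 649.9 as control and 774.0, 1100.7 and 986.1 with LPS, values that overlapped (log2 change 0.06 ± 0.21, limma adjusted p = 0.850; -0.67 with equal totals, limma adjusted p = 0.00960). In Lyz2Cre-BHLHE40-Fl it rose 2.64-fold, from 95.2, 66.3 and 84.1 to 209.5, 249.9 and 189.1.

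**Figure D2:**
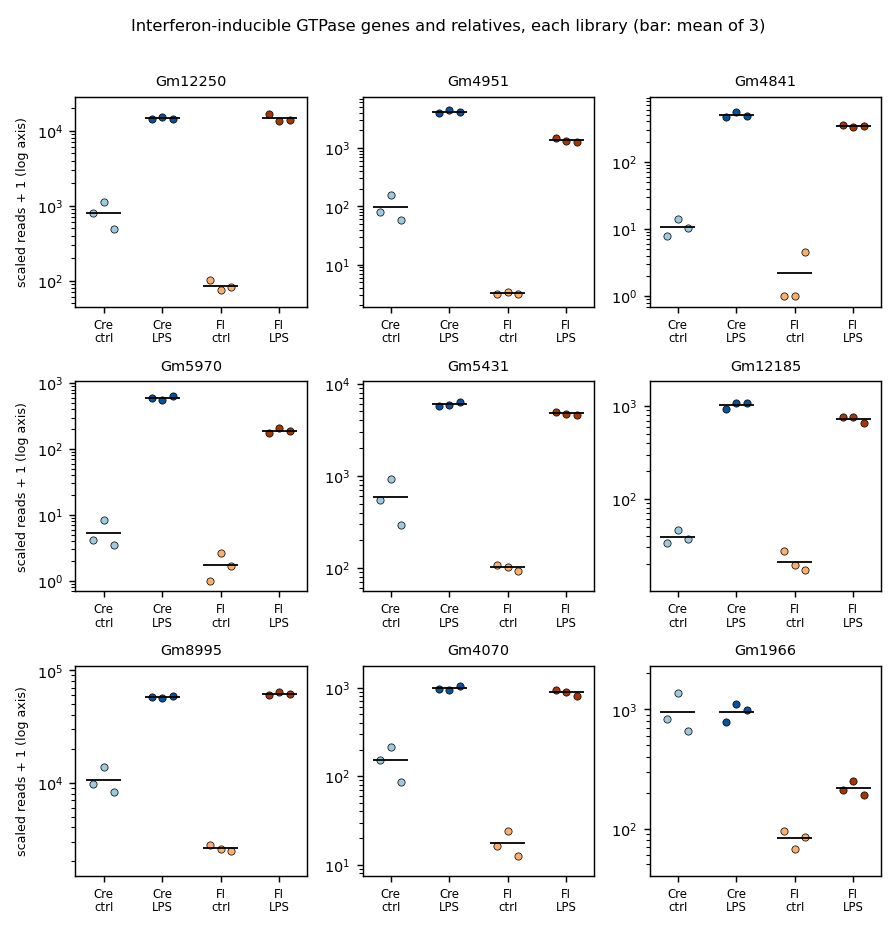
Scaled reads + 1 (log axis, own range in each panel) of 9 GTPase genes and relatives in every library, with Cre for Lyz2Cre, Fl for Lyz2Cre-BHLHE40-Fl, ctrl for control and a bar for the mean of 3. In each panel the Fl controls have the lowest mean, and Gm1966 is the panel in which the Cre control and Cre LPS libraries overlap.

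Several noncoding genes also rose strongly with LPS. Gm6545 is a processed pseudogene (chr19:12528755-12530540) inside an intron of the noncoding gene A330040F15Rik. It had 51.6, 184.8 and 26.0 scaled reads in the Lyz2Cre controls, 6076.4, 6404.2 and 7655.2 with LPS, 0.0, 2.4 and 1.4 in the Lyz2Cre-BHLHE40-Fl controls and 4415.6, 4849.9 and 4742.4 with LPS. Its log2 change of 11.18 ± 0.49 in Lyz2Cre-BHLHE40-Fl was the largest of the 100 genes (limma adjusted p = 1.11e-12), and that in Lyz2Cre was 6.70 ± 0.49 (76.7-fold). Gm28347, a long noncoding RNA gene of chromosome 19, was at 0.0 in all 6 control libraries. With LPS it had 176.5, 253.8 and 220.9 in Lyz2Cre, at least 269-fold higher, and 35.1, 23.0 and 13.8 in Lyz2Cre-BHLHE40-Fl, at least 32.1-fold higher, both against a floor of 3 reads over the 3 control libraries.

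Gm20559 and Gm43197 form a nested pair on chromosome 6: Gm20559 is a multi-exon noncoding gene, and Gm43197, a TEC locus, lies within its introns on the same strand. Gm20559 had 722.9, 1031.9 and 606.3 scaled reads in the Lyz2Cre controls and 8981.9, 8783.6 and 8795.2 with LPS. In Lyz2Cre-BHLHE40-Fl it had 298.1, 259.0 and 256.5 and then 7400.0, 7313.9 and 7133.0. The rises were 11.2-fold and 26.9-fold, and Gm43197 rose 9.71-fold and 25.5-fold. Reads of unspliced Gm20559 and of Gm43197 cannot be told apart in a gene table. Gm14005, known as Morrbid, is a noncoding RNA of myeloid cells that keeps the cell death gene Bcl2l11 in check. It rose 6.49-fold in Lyz2Cre, from 142.4, 120.8 and 121.4 to 794.8, 838.6 and 863.2. In Lyz2Cre-BHLHE40-Fl it rose 37.6-fold, from a control mean of 12.7 to 523.1, 492.2 and 422.0.

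On the X chromosome, Gm14636 and Gm6377 rose by nearly the same factor under both labels. Gm14636, a noncoding gene, had 354.1, 465.3 and 401.1 against 3301.5, 2980.7 and 3124.6 scaled reads in Lyz2Cre, and 357.7, 440.5 and 478.3 against 2879.0, 2829.0 and 3084.4 in Lyz2Cre-BHLHE40-Fl. The rises were 7.71-fold and 6.89-fold, and the difference between them on the log2 scale was -0.16 ± 0.15 (limma adjusted p = 0.546). Gm6377, annotated as protein-coding, rose 7.24-fold, from 313.3, 343.7 and 268.0 to 1907.8, 2499.3 and 2290.9. Under the other label it rose 6.62-fold, from 546.0, 478.4 and 432.6 to 3479.4, 3106.5 and 3060.6. It shares exon bases with Sh3bgrl on the same strand, whose own LPS changes were 0.18 (limma adjusted p = 0.0646) and 0.86 (limma adjusted p = 3.22e-08) on the log2 scale.

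**Figure D3:**
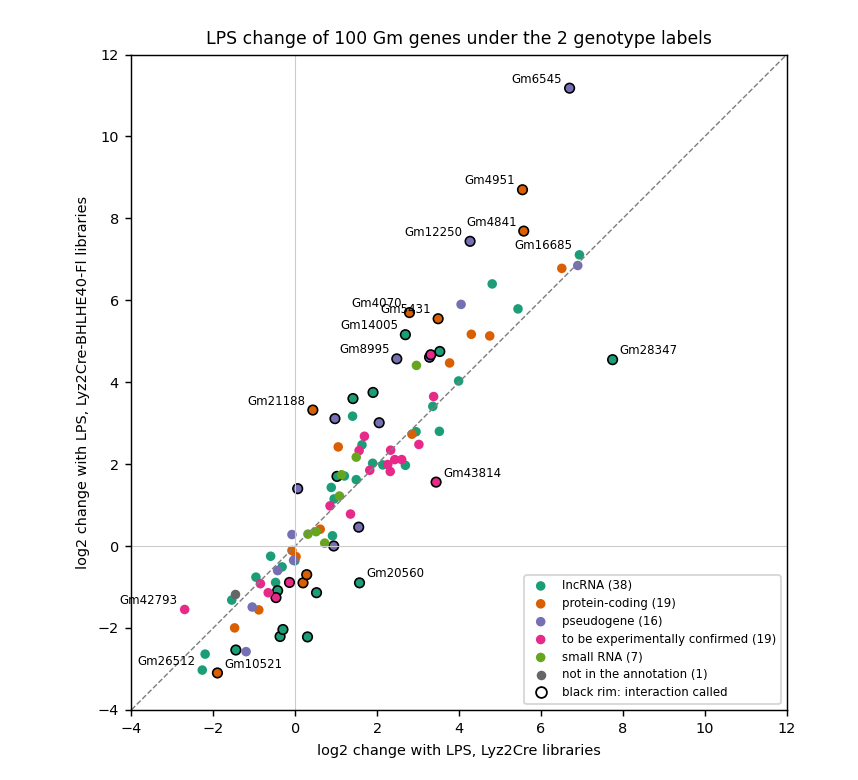
Log2 change with LPS in the Lyz2Cre libraries (x axis) against that in the Lyz2Cre-BHLHE40-Fl libraries (y axis) for the 100 genes, coloured by annotation class, with a black rim where the interaction was called and a dashed line for equal change. Gm6545, Gm12250 and Gm4951 lie above the line, Gm28347, Gm43814 and Gm20560 below it.

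Genes that fell with LPS were fewer. Most of them, like most that rose, were not annotated as protein-coding. Protein-coding genes made up 19.0% of the whole set described here, so such a majority was not particular to either direction. In Lyz2Cre 2 of the 21 called lower were protein-coding, and 11 of the 66 called higher. In Lyz2Cre-BHLHE40-Fl the counts were 5 of 28 and 12 of 63. Gm10521 (chr1:171895664-171898237), annotated as protein-coding, lies 4946 bases from Cd84, a receptor gene of the signalling lymphocyte activation family. It had 157.8, 214.0 and 176.7 scaled reads in the Lyz2Cre controls and 73.6, 38.6 and 38.9 with LPS, and 584.5, 378.2 and 394.9 in the Lyz2Cre-BHLHE40-Fl controls and 44.5, 55.2 and 53.8 with LPS. It fell by 1.90 ± 0.23 and by 3.10 ± 0.23 on the log2 scale, and control and LPS libraries did not overlap under either label. Gm17586, which starts near Mafg on the opposite strand, fell 4.51-fold from 153.2, 161.3 and 179.2 to 51.4, 33.1 and 24.9 in Lyz2Cre. In Lyz2Cre-BHLHE40-Fl it fell 6.71-fold from 69.1, 61.6 and 84.8 to 12.9, 9.2 and 10.0. Mafg, a small Maf transcription factor gene 168 bases away, moved the other way (log2 change 0.37, limma adjusted p = 0.000491, and 0.50, limma adjusted p = 2.29e-05).

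Gm20300 and Gm5547 are noncoding genes that fell under both labels. Gm20300 went from 270.2, 224.5 and 304.0 to 102.8, 84.1 and 82.4 in Lyz2Cre, 2.97-fold lower. Its values in Lyz2Cre-BHLHE40-Fl went from 275.5, 214.7 and 208.7 to 97.1, 87.4 and 91.4, 2.53-fold lower. Gm5547 had 107.0, 107.0 and 88.8 and then 33.3, 40.0 and 35.8 in Lyz2Cre, and 228.3, 206.8 and 244.9 and then 36.3, 41.4 and 36.3 in Lyz2Cre-BHLHE40-Fl. All of its control libraries were above all of its LPS libraries. Gm42793 is a TEC locus that shares exon bases with Spp1, the osteopontin gene, on the same strand. It fell 6.56-fold in Lyz2Cre, from 232.5, 273.2 and 279.7 to 47.2, 41.4 and 31.1, and 3.19-fold in Lyz2Cre-BHLHE40-Fl, from 27.6, 26.1 and 15.2 to 8.2, 4.6 and 8.8. Spp1 did not fall with it: its log2 changes were 0.08 (limma adjusted p = 0.627) and 0.99 (limma adjusted p = 1.14e-06).

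Position beside a coding gene was a second way to order the 100. Of them, 58 overlapped another annotated gene. For each such gene with a coding partner, 1 partner was taken, and 15 Gm genes lay on the partner's strand without shared exon bases, most of them loci within an intron. Of the 14 pairs in which the partner was tested, 12 were called in the same direction with LPS in Lyz2Cre and 1 in opposite directions, and 11 and 0 in Lyz2Cre-BHLHE40-Fl. Of these 14 pairs, 13 of the Gm genes and 12 of the partners were called higher in Lyz2Cre, and 11 and 12 in Lyz2Cre-BHLHE40-Fl, so most pairs would share a direction however they were matched. Another 16 lay on the opposite strand and shared exon bases. In the 15 of these with a tested partner, 9 pairs were called in the same direction and 2 in opposite directions in Lyz2Cre, and 10 and 2 in Lyz2Cre-BHLHE40-Fl. Here 10 of the Gm genes and 7 of the partners were called higher in Lyz2Cre, and 8 and 8 in Lyz2Cre-BHLHE40-Fl. The strand setting is unstated in the sources used here, so reads of antisense partners, and reads of an unspliced host and of a locus in its intron, cannot be told apart.

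The examples of loci in introns given here were chosen after their values were seen. Gm43430 lies in Nfkb1, the gene of the NF-κB subunit p105. It had 6.9, 12.2 and 11.7 scaled reads as control and 122.3, 102.1 and 116.6 with LPS in Lyz2Cre, and 15.3, 28.4 and 7.2 as control and 156.8, 194.7 and 251.7 with LPS in Lyz2Cre-BHLHE40-Fl. Its log2 changes of 3.38 ± 0.37 and 3.65 ± 0.37 stood beside 3.10 and 3.46 for Nfkb1. Gm37084, in the kinase gene Mapkapk2, changed by 3.02 and 2.48 against 2.89 and 2.35. Gm42819, in the receptor gene Notch2, changed by 2.33 and 2.34 against 2.49 and 2.41. Gm37159 and Gm38377 both lie in Cers6, a ceramide synthase gene, which changed by 2.13 and 2.42. Gm37159 changed by 1.69 and 2.68 and Gm38377 by 1.56 and 2.33. An exception in direction was Gm22442, a small Cajal body RNA gene in Chd3, which was called higher in Lyz2Cre at 0.72 while Chd3 was called lower at -0.70.

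The antisense examples were likewise chosen after their values were seen. Gm13822 overlaps the exons of Oasl1, an interferon-induced gene of the oligoadenylate synthetase-like family. It had 11.5, 17.8 and 0.0 scaled reads against 205.7, 292.4 and 315.7 in Lyz2Cre, and 0.0, 5.5 and 5.8 against 256.3, 157.9 and 180.3 in Lyz2Cre-BHLHE40-Fl. Its changes of 5.44 ± 0.83 and 5.79 ± 0.83 on the log2 scale stood beside 5.83 and 7.63 for Oasl1, whose group means with LPS were 55688 and 44092 scaled reads. Gm16685 runs antisense to Il7, the interleukin 7 gene (chr3:7612705-7690001). It went from 3.8, 0.0 and 5.9 to 419.6, 383.5 and 376.4 in Lyz2Cre, and from 0.0, 0.8 and 0.0 to 172.0, 161.0 and 167.8 in Lyz2Cre-BHLHE40-Fl. Its log2 changes were 6.94 ± 0.52 and 7.11 ± 0.52, while those of Il7 were -0.55 (limma adjusted p = 0.137) and 1.66 (limma adjusted p = 0.000109). The Il7 means were 147 and 99.9 scaled reads in Lyz2Cre and 14.0 and 47.2 in Lyz2Cre-BHLHE40-Fl, so with LPS the Gm16685 mean was above the Il7 mean under both labels.

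Gm16181 overlaps the exons of Nfkbil1 on the other strand (chr17:35220834-35224134) and is annotated as protein-coding. It had 5.4, 3.2 and 3.3 scaled reads in the Lyz2Cre controls and 447.4, 417.9 and 466.6 with LPS, a 112-fold rise. It was at 0.0 in the 3 Lyz2Cre-BHLHE40-Fl controls and at 117.0, 104.3 and 105.2 with LPS, at least 146-fold higher. Nfkbil1 changed by 0.61 (limma adjusted p = 0.000968) and 0.34 (limma adjusted p = 0.0429). Gm12764, antisense to the RNA-binding protein gene Lsm14a, changed by 4.81 and 6.40 against 1.28 and 1.17. Gm13571 is antisense to Ly75, the endocytic receptor gene DEC-205, and changed by 3.52 and 2.80 against 1.58 and 1.27. Gm26512 shares exon bases with Dio2, the thyroid hormone deiodinase gene, and fell with it: -2.27 and -3.03 for Gm26512, -2.18 and -3.86 for Dio2. The call for Gm26512 in Lyz2Cre had a limma adjusted p of 0.0119, and its 3 LPS libraries there held 15.3, 0.0 and 15.6 scaled reads.

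**Figure D4:**
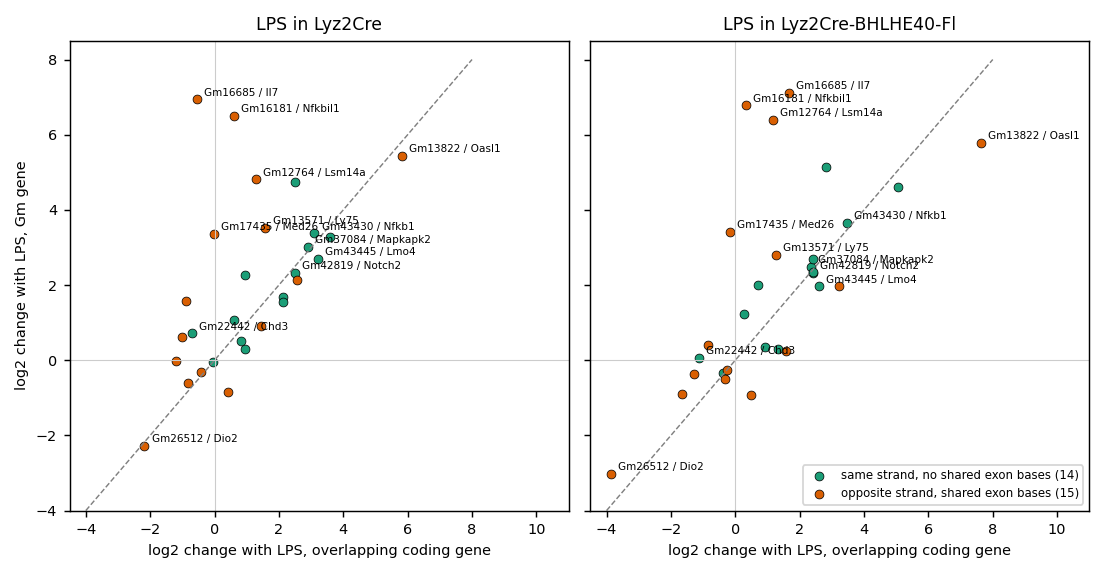
Log2 change with LPS of an overlapping coding gene (x axis) against that of the Gm gene (y axis), in Lyz2Cre (left) and Lyz2Cre-BHLHE40-Fl (right), for 14 pairs on the same strand without shared exon bases and 15 pairs on opposite strands with shared exon bases. Gm43430 in Nfkb1 lies near the dashed line of equal change, and Gm16685, Gm16181 and Gm12764 lie above it in both panels.

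Copied genes formed another group. For 13 of the 100, another gene in the annotation had a transcript at least 95% identical over at least 90% of the length. The sources used here do not state how reads with several matches were counted, so these values may hold reads of the copy. Gm20056 is a processed pseudogene 97.5% identical to Chp1, a calcineurin B-like protein gene, and lies 309 bases from Tm4sf19, a tetraspanin-like gene of multinucleated macrophages. Its scaled reads were 600.5, 818.7 and 772.1 in the Lyz2Cre controls, 2112.1, 2208.3 and 2048.3 with LPS, 3636.4, 2842.2 and 3497.2 in the Lyz2Cre-BHLHE40-Fl controls and 5126.0, 4264.1 and 4276.5 with LPS. No groups overlapped, and the order followed Tm4sf19, which had group means of 1380 and 4085 in Lyz2Cre and 5836 and 8922 in Lyz2Cre-BHLHE40-Fl. Chp1 had means of 2167, 1970, 1678 and 1630 in the same order of groups. With library totals set equal, the LPS change of Gm20056 in Lyz2Cre-BHLHE40-Fl turned from 0.46 to -0.16 (limma adjusted p = 0.226).

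Gm6548, 96.7% identical to the translation elongation factor gene Eef1a1, had LPS changes closer in size to those of a neighbour than to those of its copy. It lies 608 bases from Eif2ak2, the gene of the interferon-induced kinase PKR, on the same strand. It had 374.1, 590.9 and 340.8 scaled reads against 1759.1, 1778.0 and 1718.6 in Lyz2Cre, and 229.0, 144.5 and 157.3 against 1319.0, 1484.2 and 1421.3 in Lyz2Cre-BHLHE40-Fl. The log2 changes were 2.05 and 3.01 for Gm6548 and 2.91 and 4.28 for Eif2ak2. Eef1a1 was called higher too, by 0.29 (limma adjusted p = 0.00364) and 0.19 (limma adjusted p = 0.0459). The means of Eef1a1 were 40084 and 49068, and 42999 and 49033. Where the reads of Gm6548 came from was not tested. Gm16464, 99.3% identical to the cyclin Y-like gene Ccnyl1, lies in Trim30d, an interferon-induced gene of the tripartite motif family. It changed by 3.28 and 4.61 against 3.59 and 5.07 for Trim30d. Gm15922, a polymorphic pseudogene 99.5% identical to Pira2, and Gm15931, 96.7% identical to Pirb, belong to the paired immunoglobulin-like receptors. Gm15922 was called lower with LPS under both labels, at -1.05 and -1.49, and Gm15931 was called higher in Lyz2Cre at 0.94 but not in Lyz2Cre-BHLHE40-Fl (interaction -0.94, limma adjusted p = 0.00564).

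The gene with the highest values lies beside a ribosomal RNA gene. Gm26917 (chr17:39843013-39846341) and Gm42418 (chr17:39846958-39848788) lie on the plus strand, 617 bases from the end of the former to the start of the latter. Gm42418 shares 99.5% of its exon bases with the ribosomal RNA gene CT010467.1 on the other strand, and RefSeq lists it as a synonym of Rn18s-rs5, a ribosomal RNA-related sequence. Gm26917 does not overlap CT010467.1, which lies 12 bases away. The level of ribosomal RNA in a library depends on how ribosomal RNA was removed, a step unstated in the sources used here. Gm26917 had 116944.4, 126020.0 and 57566.7 scaled reads in the Lyz2Cre controls, 212967.7, 215452.6 and 226228.5 with LPS, 45644.6, 79811.9 and 66055.0 in the Lyz2Cre-BHLHE40-Fl controls and 166163.0, 205445.2 and 246498.8 with LPS. It was called higher with LPS under both labels (1.20 ± 0.24, limma adjusted p = 0.000376, and 1.71 ± 0.24, limma adjusted p = 8.99e-06), and as a share of reads it was 0.254% to 0.553% in the Lyz2Cre controls and 0.567% to 0.594% with LPS. With equal library totals the change in Lyz2Cre was 0.48 (limma adjusted p = 0.105).

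Gm42418 showed the library that stood apart. It had 5398.8, 5217.0 and 1840.8 scaled reads in the Lyz2Cre controls, 10064.4, 8859.4 and 17088.0 with LPS, 2656.5, 5896.7 and 4161.7 in the Lyz2Cre-BHLHE40-Fl controls and 9029.1, 64012.7 and 19089.8 with LPS. Replicate 2 of the last group held 0.204% of its reads on this gene, against 0.0295% and 0.0627% in replicates 1 and 3. The call with LPS in Lyz2Cre (1.63 ± 0.52, limma adjusted p = 0.0154) was lost without control replicate 3 (1.12, limma adjusted p = 0.0919), without LPS replicate 3 (1.34, limma adjusted p = 0.0853) and with equal totals (0.90, limma adjusted p = 0.157). The same library was high for Gm15564, an antisense noncoding gene on chromosome 16 singled out after its values were seen: 72.6, 760.5 and 98.9 scaled reads in the Lyz2Cre-BHLHE40-Fl LPS group, against 11.7 to 85.5 in the other 9 libraries. Gm15564 shares a stretch 98.6% identical, over 17.9% of its length, with Lars2, a mitochondrial leucyl-tRNA synthetase gene, and Lars2 had 445.9, 3764.3 and 670.0 in the same 3 libraries. Without replicate 2 the difference of Gm15564 between genotype labels with LPS moved from 1.78 (limma adjusted p = 0.0326) to 0.73 (limma adjusted p = 0.222).

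Small RNA genes, 7 of the 100, were called higher with LPS in 7 cases in Lyz2Cre and in 5 in Lyz2Cre-BHLHE40-Fl. Of all genes tested, 25.0% and 24.9% were called higher. Total RNA was sequenced, and no size limits of the libraries are stated in the sources used here. The pair of small nuclear RNA genes printed above moved together: Gm24265 had 204.0, 100.5 and 90.4 against 236.2, 277.2 and 300.2 in Lyz2Cre, and 78.5, 225.0 and 97.8 against 284.4, 565.8 and 404.5 in Lyz2Cre-BHLHE40-Fl. Gm24407 had 73.9, 32.4 and 34.3 against 98.7, 125.5 and 155.5, and 45.1, 157.9 and 39.9 against 229.4, 435.5 and 268.0. For both genes, replicate 2 was the highest library in each Lyz2Cre-BHLHE40-Fl group. With equal library totals, Gm24407 lost its LPS call in Lyz2Cre (0.78, limma adjusted p = 0.127). Gm23935, annotated as a microRNA gene of 57 bases, had the highest coefficient of variation in both control groups among genes with a mean of at least 10 there, with 1.5, 213.2 and 12.3 scaled reads in the Lyz2Cre-BHLHE40-Fl controls and 65.4, 17.8 and 3.3 in the Lyz2Cre controls. Gm22009, a small Cajal body RNA gene in Kpna4, had 5625.1, 6381.0 and 6724.9 against 7602.1, 7484.2 and 8016.0 in Lyz2Cre. Its call of 0.31 ± 0.10 (limma adjusted p = 0.0127) turned to -0.42 (limma adjusted p = 0.000948) with equal library totals, and was lost without Lyz2Cre control replicate 1 (0.23, limma adjusted p = 0.0782) or LPS replicate 3 (0.28, limma adjusted p = 0.0557).

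**Figure D5:**
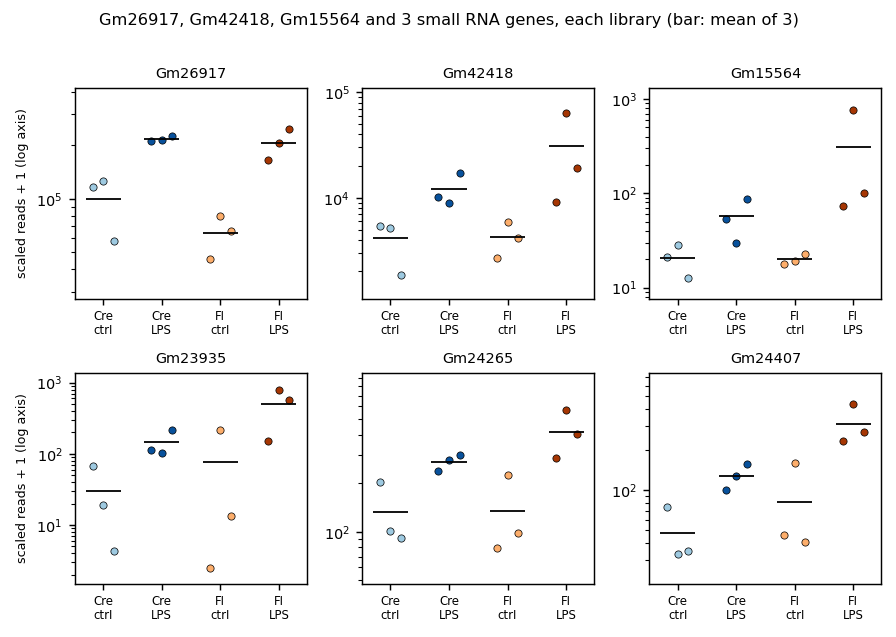
Scaled reads + 1 (log axis, own range in each panel) of Gm26917, Gm42418, the antisense gene Gm15564 and 3 small RNA genes in every library, with Cre for Lyz2Cre, Fl for Lyz2Cre-BHLHE40-Fl, ctrl for control and a bar for the mean of 3. In the Fl LPS group, replicate 2 is the highest point for Gm42418, Gm15564, Gm23935, Gm24265 and Gm24407, and replicate 3 for Gm26917.

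Between genotype labels without LPS, more of the 100 genes were lower than higher in the libraries labelled Lyz2Cre-BHLHE40-Fl. Of them 58 were called in either direction, against 31.6% of all genes tested. The split was 40 lower, against 16.6% of all genes tested, and 18 higher, against 3060 of the 20419 genes tested. The median log2 difference was -0.25, against 0.00 over all genes. Of the 9569 genes without a Gm symbol at or above the cut, 18.3% were called higher and 27.5% lower. Among the 25 genes at or above the cut in all groups, 6 were called higher and 8 lower. With library totals set equal, the median over all genes moved to 0.17 and the calls to 25 higher and 37 lower.

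Of the 9 genes on the GTPase list, 8 were called lower in the Lyz2Cre-BHLHE40-Fl controls, as were 12 of the 15 named GTPase genes. The same direction was found for 57 of 66 LPS response genes on a comparison list, for 7 of 8 macrophage markers and for 6 of 6 T cell markers, so it was not particular to GTPase genes. The control values printed above did not overlap for these 8, with Gm4951 42.8-fold, Gm1966 11.6-fold, Gm12250 9.42-fold, Gm4070 9.01-fold, Gm5431 5.85-fold and Gm8995 4.06-fold lower. The exception was Gm12216, the listed gene with no place in these families in the annotation used. It had 11.5, 4.9 and 7.5 scaled reads in Lyz2Cre and 5.1, 6.3 and 3.6 in Lyz2Cre-BHLHE40-Fl. Outside this group, Gm6545 was 69.1-fold lower (-4.99 ± 0.49, limma adjusted p = 2.38e-07) and Gm14005 10.1-fold lower (-3.27 ± 0.17, limma adjusted p = 6.65e-11). Gm21188, an annotated protein-coding gene of chromosome 13, had 697.5, 815.5 and 683.4 in Lyz2Cre and 77.1, 67.9 and 61.6 in Lyz2Cre-BHLHE40-Fl, 10.6-fold lower. Gm42793, at the Spp1 locus, was 11.4-fold lower (-3.49 ± 0.30, limma adjusted p = 4.61e-08), and Spp1 itself differed by -4.03 (limma adjusted p = 2.13e-14).

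Gm10134, a single-exon gene 680 bases from Gbgt1, a glycosyltransferase gene, had 91.6, 81.9 and 57.8 scaled reads in the Lyz2Cre controls and 0.0, 7.9 and 15.2 in the Lyz2Cre-BHLHE40-Fl controls. Its log2 difference was -3.87 ± 0.65 (limma adjusted p = 0.000128), and Gbgt1 differed by -3.27 (limma adjusted p = 8.14e-11). Gm5150, which aligned over 45.0% of its transcript to the signal-regulatory protein gene Sirpb1a with 87.3% identity, had 235.6, 218.9 and 173.4 against 44.3, 47.4 and 41.3. It was lower in the Lyz2Cre-BHLHE40-Fl libraries with LPS too, at 73.6, 128.3 and 147.8 against 18.7, 13.8 and 11.3, so the labels did not overlap in either treatment.

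The 18 genes called higher in the Lyz2Cre-BHLHE40-Fl controls were 6 long noncoding RNA genes, 5 TEC loci, 4 protein-coding genes, 2 pseudogenes and 1 small RNA gene. Gm17230, a processed pseudogene related to Mybbp1a inside Pde7b on the other strand, had 12.3, 12.2 and 12.6 scaled reads in the Lyz2Cre controls and 160.7, 181.6 and 191.3 in the Lyz2Cre-BHLHE40-Fl controls, 14.4-fold higher (3.74 ± 0.46, limma adjusted p = 3.80e-06). Gm26512, on the strand opposite Dio2 and sharing 2.69% of its exon bases with it, had 27.7, 34.9 and 28.5 against 221.7, 228.2 and 237.0, 7.54-fold higher. The log2 difference of Dio2 was 0.78 (limma adjusted p = 4.26e-08). Gm13391 (chr2:6472000-6478619), a long noncoding RNA gene, had 56.2, 51.1 and 74.5 against 173.0, 187.9 and 173.2, and Gm20056 was 4.55-fold higher. Gm10800 and Gm10801 lie 2463 bases apart on chromosome 2 in a region of repeats, with relatives such as Gm10721 and Gm10720. Gm10800 had 607.4, 512.3 and 924.6 against 2253.0, 2678.0 and 1894.3, 3.34-fold higher. Gm10801 overlapped, with 63.9, 94.8 and 223.6 against 560.5, 58.4 and 420.3 (1.11 ± 0.62, limma adjusted p = 0.199), and was called without Lyz2Cre-BHLHE40-Fl control replicate 2 (2.12, limma adjusted p = 0.00115).

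With LPS in both, genes called lower again outnumbered those called higher. Of the 100, 11 were called higher and 38 lower in the libraries labelled Lyz2Cre-BHLHE40-Fl, against 17.7% and 19.8% of all genes tested. The median log2 difference was -0.32, against -0.02 over all genes. Of the genes without a Gm symbol at or above the cut, 24.8% were called higher and 31.4% lower. The split depended on scaling and on the choice of genes: with equal library totals, which moved the median of all genes to 0.22, 21 were higher and 25 lower, and 7 were higher and 35 lower among the 100 Gm genes with the highest mean over all 12 libraries, 84 of which were the same genes. Both genotype comparisons called 23 genes lower and 6 higher, while Gm43814, Gm13391 and Gm30329 were higher in the controls and lower with LPS.

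Of the 9 genes on the GTPase list, 3 were called lower: Gm4951 3.09-fold, Gm1966 4.41-fold and Gm12185 1.43-fold. The call for Gm12185 (-0.51 ± 0.17, limma adjusted p = 0.0269) was lost without Lyz2Cre LPS replicate 2 or 3 or Lyz2Cre-BHLHE40-Fl LPS replicate 2 or 3, with limma adjusted p from 0.0524 to 0.111, and with equal totals (-0.22, limma adjusted p = 0.330). Gm12250 differed by 0.01 ± 0.19 (limma adjusted p = 0.994), with overlapping values, and Gm8995 by 0.10 ± 0.12 (limma adjusted p = 0.584). Gm5431 and Gm4841 were not called, but their libraries did not overlap and were lower in Lyz2Cre-BHLHE40-Fl. Fitted on the compared groups alone, both were called, Gm5431 at -0.32 (limma adjusted p = 0.00363) and Gm4841 at -0.54 (limma adjusted p = 0.00349), which made 5 of 9 lower. Gm4841 was also called by edgeR on the recovered reads (-0.50, edgeR adjusted p = 0.0182). Of the named GTPase genes, 1 was higher and 5 were lower of 15.

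Larger differences with LPS were at other loci. Gm28347 was 9.06-fold lower in Lyz2Cre-BHLHE40-Fl (-3.20 ± 0.42, limma adjusted p = 9.99e-06). Gm13571, antisense to Ly75, had 885.1, 964.2 and 1094.9 scaled reads in Lyz2Cre and 206.0, 164.1 and 171.6 in Lyz2Cre-BHLHE40-Fl, 5.44-fold lower, and Ly75 differed by -1.42 (limma adjusted p = 1.07e-09). Gm42793 was 5.54-fold, Gm10134 5.86-fold and Gm5150 7.98-fold lower. On the higher side, Gm17230 had 1.4, 8.3 and 7.8 against 25.7, 18.4 and 50.1, 5.38-fold higher, and Gm37159 had 93.1, 71.7 and 59.1 against 177.9, 188.6 and 184.1, 2.46-fold higher. Gm24407 was called 2.46-fold higher (1.26 ± 0.42, limma adjusted p = 0.0240) but not without Lyz2Cre LPS replicate 1 or 2 or Lyz2Cre-BHLHE40-Fl LPS replicate 2 (limma adjusted p from 0.0577 to 0.122). The call for Gm26512 (2.12 ± 0.70, limma adjusted p = 0.0240) was lost when any of the 3 Lyz2Cre-BHLHE40-Fl LPS libraries was left out (limma adjusted p from 0.0510 to 0.0621). Without Lyz2Cre-BHLHE40-Fl LPS replicate 2, 10 of the 100 calls in this comparison changed.

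The interaction of genotype label and LPS tests directly whether the LPS change differed between the labels. It was called higher, for a larger change in Lyz2Cre-BHLHE40-Fl, in 18 of the 100 genes and lower in 16, against 9.52% and 9.31% of all genes tested. Of the genes without a Gm symbol at or above the cut, 17.9% and 16.2% were called. The median over the 100 was 0.03, against -0.03 over all genes. Of the 60 genes that were higher with LPS under both labels, 17 rose more and 3 rose less in Lyz2Cre-BHLHE40-Fl. The GTPase list gave 7 of 9 called higher and none lower, and the named GTPase genes 12 of 15. On the LPS response list 54 of 66 genes were called higher. As the control values above show, these 7 had their lowest values in the Lyz2Cre-BHLHE40-Fl controls. The interactions were 3.16 ± 0.27 for Gm12250, 3.15 ± 0.33 for Gm4951, 2.90 ± 0.36 for Gm4070, 2.09 ± 0.18 for Gm8995, 2.06 ± 0.34 for Gm5431, 2.11 ± 0.61 for Gm4841 and 1.33 ± 0.30 for Gm1966. That for Gm4841 (limma adjusted p = 0.0220) was lost when any of 5 libraries was left out: Lyz2Cre control replicate 2, Lyz2Cre LPS replicate 1 or 3, and Lyz2Cre-BHLHE40-Fl control replicate 1 or 2 (limma adjusted p from 0.0547 to 0.0567). With a pseudocount of 5 in place of 1, the Gm4841 interaction was 0.74 and not called (limma adjusted p = 0.134).

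The 16 genes with a negative interaction were of several kinds. LPS lowered 6 of them under both labels, by more in Lyz2Cre-BHLHE40-Fl, and 4 were called lower in Lyz2Cre-BHLHE40-Fl and not called in Lyz2Cre. Another 3 rose under both labels, by less in Lyz2Cre-BHLHE40-Fl, 2 rose in Lyz2Cre and fell in Lyz2Cre-BHLHE40-Fl, and 1 rose in Lyz2Cre and was not called in Lyz2Cre-BHLHE40-Fl. Gm20560, antisense to Dnah6, had 297.2, 281.3 and 270.5 scaled reads as control and 703.1, 943.5 and 892.7 with LPS in Lyz2Cre, and 351.1, 302.4 and 343.5 as control and 208.3, 141.1 and 187.8 with LPS in Lyz2Cre-BHLHE40-Fl. It rose 2.99-fold under the first label and fell 1.86-fold under the second, with no overlap in either (interaction -2.47 ± 0.20, limma adjusted p = 6.94e-08). Dnah6 was near 0, with group means of at most 2.23. Gm13391 had 69.5, 86.9 and 66.9 with LPS in Lyz2Cre, overlapping its controls, and 39.8, 39.9 and 32.6 in Lyz2Cre-BHLHE40-Fl, 4.76-fold below its controls (interaction -2.53 ± 0.28, limma adjusted p = 2.94e-06). Gm14461 (chr2:78237547-78302230) is a long noncoding RNA gene in GENCODE and a protein-coding gene in RefSeq. It fell 4.66-fold in Lyz2Cre-BHLHE40-Fl, from 916.7, 731.9 and 737.7 to 153.3, 191.7 and 166.6. In Lyz2Cre it fell 1.29-fold, from 275.6, 250.5 and 314.9 to 232.1, 183.5 and 238.0 (limma adjusted p = 0.0320). That call ended without Lyz2Cre control replicate 1 or 3 or LPS replicate 2 (limma adjusted p from 0.0620 to 0.173).

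Gm43814 lies 1293 bases from Ccrl2, a chemokine receptor-like gene induced in activated macrophages, on the same strand. It had 93.1, 130.5 and 128.1 against 1306.2, 1253.8 and 1252.0 scaled reads in Lyz2Cre and 231.2, 300.8 and 287.0 against 900.0, 769.7 and 750.1 in Lyz2Cre-BHLHE40-Fl. The rises were 10.8-fold and 2.95-fold, and the interaction was -1.88 ± 0.18 (limma adjusted p = 8.13e-07). Ccrl2 had an interaction of -1.79 (limma adjusted p = 2.47e-08), and both were higher in the Lyz2Cre-BHLHE40-Fl controls and lower with LPS. Gm28347, at 0.0 in all controls, had an interaction of -3.20 ± 0.60 (limma adjusted p = 0.000851), equal by construction to its genotype difference with LPS. With edgeR on the recovered reads that interaction was not called.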

How the data were processed

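RNA of peritoneal macrophages was measured in 12 libraries, 3 in each of 4 groups, and grouped by the labels. The deposited values are a signal: reads of each gene that the authors scaled by a single factor for each library, kept to 1 decimal. Dividing by the value of 1 read (0.725 to 1.56) gave whole reads for 100% of values, and these recovered reads entered an edgeR alternative. STAR, Cufflinks, Cuffdiff and mm10 are named, per the submitters' processing notes, without role or version. The sources used here state no counting rule, strand setting or treatment of reads with several matches.

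The main test was limma 3.58.1 (R 4.3.3), a trend model with 1 mean per group on log2(value + 1) over all 12 libraries. It used 20419 genes, those that reached 1 in 3 or more libraries, all 100 genes described among them, with Benjamini-Hochberg adjustment over all and calls below 0.05. Fold changes are ratios of group means, and log2 changes come from log2(value + 1), so low genes have their change understated. Against a group at 0, the fold is a bound from 3 reads over the group. Intervals are 95% and cover counting error only. edgeR 4.0.16 served as alternative, blastn 2.17.0 for copies, GENCODE M21 and RefSeq for annotation. The fit was tested on simulated data.

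Genes were named by rule: the 12 highest; up to 5 per direction and comparison with the largest called change, no overlap of groups and a mean of at least 10; those on the hand-written GTPase and ribosomal lists; those within reach of an LPS response gene; and 5 on each side of the cut. Others were chosen after their values were seen, as examples of a position, copy or class. The 100 genes and the lists were chosen with earlier results of these data known. Replicates differed beyond sampling noise (chi-square per degree of freedom 7.35 to 72.2), so none was merged.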

Additional observations from a re-analysis of the deposited data

Results flagged for a closer look

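The change with LPS differed between the genotype labels, by the limma interaction, for 19 of the named genes. Each value is the log2 change in Lyz2Cre-BHLHE40-Fl minus that in Lyz2Cre. A positive value is a larger rise in Lyz2Cre-BHLHE40-Fl, and these were Gm6545 at 4.48, Gm12250 at 3.16, Gm4951 at 3.15, Gm4070 at 2.90, Gm21188 at 2.89, Gm4841 at 2.11, Gm8995 at 2.09, Gm5431 at 2.06, Gm1966 at 1.33 and Gm20559 at 1.22. Among negative values, the rise was smaller in Lyz2Cre-BHLHE40-Fl for Gm28347 at -3.20, Gm43814 at -1.88 and Gm20056 at -1.09, and Gm20560 at -2.47 rose in Lyz2Cre and fell in Lyz2Cre-BHLHE40-Fl. The fall was larger in Lyz2Cre-BHLHE40-Fl for Gm14461 at -1.85, Gm10521 at -1.20 and Gm5547 at -1.10, while Gm13391 at -2.53 and Gm10800 at -1.08 were called lower in Lyz2Cre-BHLHE40-Fl and not called in Lyz2Cre. The value for Gm10800 lay at the threshold (limma adjusted p = 0.0499). Its call was lost with a pseudocount of 0.1, no filter on low values, equal library totals or median-of-ratios scaling, and in 9 of the fits that left out 1 library (limma adjusted p from 0.0510 to 0.150 over all of these).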

How the results depend on the processing

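Equal library totals moved the counts most: 32 genes lower with LPS in Lyz2Cre, and 21 higher and 25 lower between genotype labels with LPS. The same setting turned the LPS change in Lyz2Cre of Gm22009 to -0.42, Gm21188 to -0.30 and Gm1966 to -0.67, and that in Lyz2Cre-BHLHE40-Fl of Gm22009 to -0.33 and Gm20056 to -0.16. Choosing the 100 genes by their mean over 12 libraries left 7 higher between labels with LPS. The interaction of Gm16181 was not called in the main fit, and its sign depended on the setting. It was called at -1.15 with a pseudocount of 5 (limma adjusted p = 0.00939). With a pseudocount of 0.1 it was called at 3.28 (limma adjusted p = 0.000808), and by edgeR at 3.13 (edgeR adjusted p = 0.0395). The cause of these shifts was not tested. Leaving out 1 library at a time gave 60 to 66 higher and 16 to 18 lower with LPS in Lyz2Cre, and 61 to 65 and 26 to 29 in Lyz2Cre-BHLHE40-Fl. It gave 16 to 18 and 37 to 41 between labels in controls, 8 to 11 and 33 to 37 with LPS, and 15 to 21 and 14 to 18 for the interaction. Of 3360 alternative values of named genes, 3213 kept direction and call, 93 lost the call, 48 gained one and 6 reversed. Few reads limit genes near 0 in a group, such as Gm28347.

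With the replicate number as a block, counts higher and lower were 67 and 21, 63 and 28, 18 and 39, 11 and 38, and 17 and 16, in the order of the report. Same-numbered libraries correlated between -0.07 and 0.03 in their deviations from group means, so the numbers were not taken to pair samples.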
